A study of Mus musculus with 5 samples.

Results

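The let-7 guide strands are the 5p arms of let-7a, b, c, d, e, f, g and i together with miR-98-5p, the 9 mature miRNAs chosen here by name from the 1966 rows of the count table. The series measured miRNAs in extracellular vesicles (EVs), membrane particles released by cells, from mesenchymal stem cells of C57BL/6-GFP transgenic mice, and asked whether freeze-drying changes their miRNA content. The 3 freeze-dried libraries came from EVs that were frozen in 25 mM trehalose, dried overnight and rehydrated in water for 1 h. The 2 libraries of EVs not freeze-dried are titled unmodified, and which of several storage buffers they were in is not given. For both groups the cells were grown with bovine serum and then held for 48 h in a serum-reduced medium, from which EVs were pelleted by ultracentrifugation. The label gives the donor strain of the cells, and no sex, age or passage was used here.

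Freeze-dried replicates 1, 2 and 3 had 2914305, 2473178 and 192450 miRNA counts, against 912080 and 131507 in not freeze-dried replicates 1 and 2. Freeze-dried replicate 3 and not freeze-dried replicate 2 are therefore called shallow and the other 3 libraries, each above 500000 counts, deep. All 9 guides were tested and none was at 0 in any library, the lowest count being 289. Of 6 mesenchymal marker miRNAs, which include miR-143-3p and miR-21a-5p, all 6 had counts. The summed share of these markers was 12.3 to 13.3% in freeze-dried and 16.6 to 18.5% in not freeze-dried libraries. Single markers went both ways in edgeR, and none was called. The log2 fold changes were -0.66, -0.28 and -0.38 for miR-143-3p, miR-21a-5p and miR-22-3p. They were 0.57, 0.30 and 0.25 for miR-199a-3p, miR-214-3p and miR-145a-5p. The 9 pluripotency miRNAs of the miR-290 and miR-302 clusters were at 0 in all 5 libraries. The liver miRNA miR-122-5p took 0.00946 to 0.0296% and 0.00913 to 0.0296% in freeze-dried and not freeze-dried libraries, and the red cell list 0.0922 to 0.170% and 0.0758 to 0.120%. The epithelial list took 0.0203 to 0.0412% and 0.0707 to 0.0736%, with 3 of 6 members at 0 throughout, and the leukocyte list 0 to 0.00883% and 0.0114 to 0.0278%, with 2 of 4 at 0. The part that these marker lists have in the let-7 values was not tested.

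As background, let-7 was found as a timing gene in worms and is conserved in sequence across animals. Its precursors are kept immature by LIN28 in stem and embryonic cells, and the mature strands accumulate as cells differentiate. The seed, bases 2 to 8 from the 5′ end, pairs with target messenger RNAs, which include those of Ras genes, Hmga2, Myc and Lin28 itself. Mature let-7 strands are the same in mouse and cattle, so a count does not tell a mouse strand from one of bovine serum.

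The 9 sequences are shown because the family is one seed with small changes outside it, and the read counts rest on telling these apart. Capitals mark the seed, the sequences are those of RefSeq (GRCm38.p6), and the prefix mmu, for mouse, is left out elsewhere.
mmu-let-7a-5p: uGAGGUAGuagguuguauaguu
mmu-let-7b-5p: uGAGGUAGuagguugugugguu
mmu-let-7c-5p: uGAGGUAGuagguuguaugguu
mmu-let-7d-5p: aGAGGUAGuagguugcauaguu
mmu-let-7e-5p: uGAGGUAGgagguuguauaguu
mmu-let-7f-5p: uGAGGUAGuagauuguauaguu
mmu-let-7g-5p: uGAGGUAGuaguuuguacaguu
mmu-let-7i-5p: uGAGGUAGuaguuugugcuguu
mmu-miR-98-5p: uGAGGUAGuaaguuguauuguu

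All 9 are 22 bases long with the same seed, so reads per miRNA need no correction for length. How evenly the library preparation captured the different sequences was not tested, so orders and folds between guides are those of reads. Relative to let-7a-5p, with positions counted from 1 at the 5′ end, let-7c-5p carries A19G alone and let-7b-5p carries A17G and A19G. let-7e-5p carries U9G, let-7f-5p G12A, let-7d-5p U1A and U16C, and let-7g-5p G12U and U18C. let-7i-5p is the most distant from let-7a-5p, with G12U, A17G, U18C and A19U, and miR-98-5p carries G11A and A19U. Of the 36 pairs of guides, 4 differ at a single base: let-7a with let-7c, let-7e and let-7f, and let-7b with let-7c. The widest pair, let-7d-5p and let-7i-5p, differs at 6. How the authors' alignment divided reads with a mismatch among these is not given in the sources used here, so levels of such neighbours are uncertain.

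The guides come from 12 hairpins on 7 chromosomes (GRCm38). The let-7d, let-7f-1 and let-7a-1 hairpins lie in exons of the non-coding gene 6720427I07Rik on the minus strand of chromosome 13, at 48536012 to 48536114, 48537829 to 48537917 and 48538179 to 48538272. On chromosome 15 the exons of Lncppara hold let-7c-2 (85706603 to 85706697) and, 621 bases further on, let-7b (85707319 to 85707403). An intron of Mir99ahg on chromosome 16 holds let-7c-1 (77599657 to 77599750), 656 bases from miR-99a. Spaca6 on chromosome 17 holds let-7e in an intron (17830352 to 17830444), 367 bases from miR-125a. let-7a-2 lies in introns of 3110039I08Rik and Gm49317 on chromosome 9 (41536716 to 41536811), between miR-100 and miR-125b-1. let-7g lies in an intron of Wdr82 on the same chromosome (106178840 to 106178927). let-7i lies in an exon of D630033A02Rik on chromosome 10 (122985640 to 122985724, minus strand). let-7f-2 (151912346 to 151912428) and miR-98 (151913214 to 151913321) share an intron of Huwe1, a ubiquitin ligase gene, on the X chromosome. Strands other than those named as minus are plus.

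let-7a, let-7c and let-7f therefore have 2 hairpins each, whose mature 5p strand is the same, and a count of them is a sum over loci. The hairpins of let-7c, the most abundant guide, show this, with the mature strand in capitals.
Mirlet7c-1: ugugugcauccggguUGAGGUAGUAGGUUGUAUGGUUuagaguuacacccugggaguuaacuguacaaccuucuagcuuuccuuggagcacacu
Mirlet7c-2: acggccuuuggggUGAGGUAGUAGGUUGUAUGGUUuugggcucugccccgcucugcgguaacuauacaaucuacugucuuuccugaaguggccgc

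The 9 guides together took a larger part of the counts in every freeze-dried library than in either library of EVs not freeze-dried. Their summed share was 39.3% in freeze-dried replicate 1 (exact 95% interval 39.2 to 39.3), 32.4% in replicate 2 (32.3 to 32.4) and 37.9% in replicate 3 (37.7 to 38.1). It was 28.1% in not freeze-dried replicate 1 (28.0 to 28.2) and 26.8% in replicate 2 (26.5 to 27.0). The means were 36.5% ± 3.6 in freeze-dried EVs (SD, n = 3) and 27.4% ± 0.98 in not freeze-dried EVs (SD, n = 2), a difference of 9.07 percentage points. No test is given for this sum, since its members were chosen with earlier results known. let-7b-5p and let-7c-5p made up 56.9 to 68.3% of the 9 guides' counts, so the sum rests mostly on them. In CPM the groups overlapped for let-7a-5p, let-7d-5p, let-7f-5p, let-7i-5p and miR-98-5p. How often sums over other sets of miRNAs would separate was not computed. Set against the other miRNAs, there were 64.7, 47.9 and 61.0 guide reads per 100 other reads in freeze-dried libraries, against 39.1 and 36.5 in not freeze-dried ones. In bulk libraries of this kind, more let-7 per vesicle and less of the other miRNAs cannot be told apart, nor can numbers of vesicles. Among deep libraries the difference was 7.70 points, from freeze-dried replicates 1 and 2 against not freeze-dried replicate 1. Among shallow ones it was 11.1 points, from freeze-dried replicate 3 against not freeze-dried replicate 2. As every freeze-dried library lay above both not freeze-dried ones, any such split must give the same direction, so this is no further check.

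**Figure D1:**
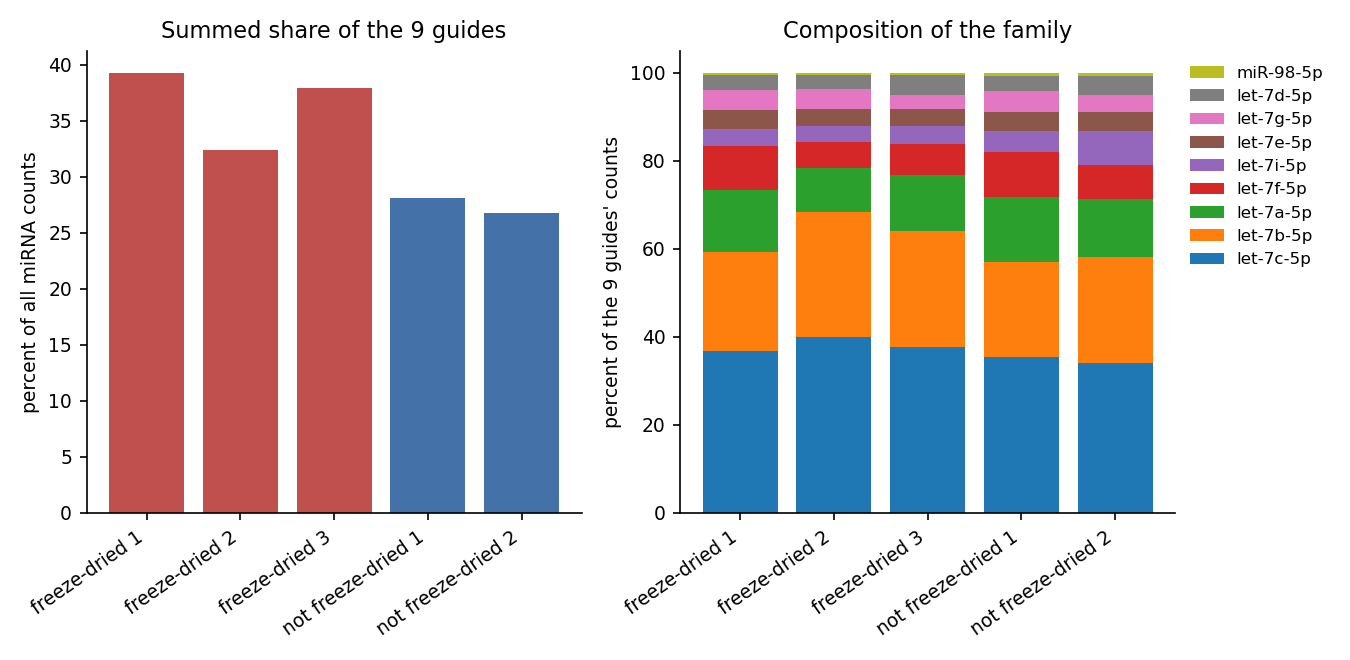
Left, the summed share of the 9 let-7 guides in percent of all miRNA counts of each library, one bar per library, with freeze-dried libraries at 32.4 to 39.3% and not freeze-dried ones at 26.8 and 28.1%. Right, stacked bars of each guide in percent of the 9 guides' counts, where let-7c-5p and let-7b-5p fill the lower 56.9 to 68.3% of the bars.

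Single guides were tested over the whole table, and none passed. edgeR called 0 of the 9 higher and 0 lower in freeze-dried EVs, with an adjusted p of 0.98 for each, beside 0% called in either direction among all 327 tested miRNAs. DESeq2 and limma-voom also called 0. With each of the 3 tools the same 2 guides, let-7b-5p and let-7c-5p, had an unadjusted p under 0.05, both on the higher side, beside 1.22% higher and 1.53% lower of all tested miRNAs by edgeR. Over all 327 tested, in either direction, 9 had such a p by edgeR, 16 by DESeq2 and 15 by limma-voom. The edgeR SE had a median of 1.59 over all tested and was 0.24 to 0.36 for the guides. These shares are therefore not matched for precision, and a share among miRNAs of like SE was not computed. Among the guides 7 of 9 had a higher fitted level in freeze-dried EVs and 2 a lower one, and the median of their log2 fold changes was 0.44, beside 51.1% higher and a median of 0.02 over all tested miRNAs. For 4 guides all freeze-dried libraries lay above all not freeze-dried ones in CPM, beside 8.87% of tested miRNAs. Of 89 abundant miRNAs, which reach 1000 CPM on average and include all 9 guides, 14.6% had that separation and 56.2% a fold change above 1. The guides are parts of the same totals and are not independent of each other.

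mmu-let-7c-5p, from chromosomes 15 and 16, was at 152990, 124269 and 155940 CPM in freeze-dried replicates 1, 2 and 3, against 89157 and 91918 CPM in not freeze-dried replicates 1 and 2. The groups do not overlap, and the lowest freeze-dried value is that of replicate 2. On the log2 scale the fold change was 0.67 (95% interval 0.14 to 1.21, SE 0.24; edgeR unadjusted p = 0.018, adjusted p = 0.98). It was the most abundant miRNA of the library in 4 libraries and the second in not freeze-dried replicate 2.

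mmu-let-7b-5p, whose hairpin neighbours let-7c-2, stood at 93991, 88182 and 109722 CPM in freeze-dried libraries, against 54115 and 64935 CPM in not freeze-dried ones. Here too the groups are apart, with the shallow library the higher or highest within each group. The log2 fold change was 0.71 (interval 0.16 to 1.26, SE 0.25; edgeR unadjusted p = 0.017, adjusted p = 0.98).

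let-7e-5p and let-7g-5p were less abundant, at means of 13713 and 13606 CPM over the 5 libraries, and also without overlap between groups. let-7e-5p had 17744, 12484 and 15704 CPM in freeze-dried libraries, against 10991 and 11644 CPM in not freeze-dried ones. let-7g-5p had 18886, 14062 and 13073 CPM in freeze-dried libraries, against 11592 and 10418 CPM in not freeze-dried ones. In both guides freeze-dried replicate 1 was the highest library. Their log2 fold changes were 0.44 (SE 0.28) and 0.48 (SE 0.28), with intervals that include 0.

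mmu-let-7a-5p, the reference sequence of the family, had 58963, 31308 and 52800 CPM in freeze-dried libraries, against 37288 and 35568 CPM in not freeze-dried ones. let-7f-5p, its neighbour on chromosome 13, had 41675, 18631 and 29403 CPM in freeze-dried libraries, against 26003 and 20436 CPM in not freeze-dried ones. For both, freeze-dried replicate 2 was the lowest of all 5 libraries and freeze-dried replicate 1 the highest, so the groups overlap. let-7d-5p, the third guide of that cluster, had 14134, 9837 and 19502 CPM in freeze-dried libraries, against 8742 and 11445 CPM in not freeze-dried ones. Its overlap also comes from freeze-dried replicate 2, while its highest library is freeze-dried replicate 3. The log2 fold changes were 0.39 (SE 0.31) for let-7a-5p, 0.36 (SE 0.35) for let-7f-5p and 0.52 (SE 0.34) for let-7d-5p, each with an interval that includes 0. Without freeze-dried replicate 2 that of let-7a-5p was 0.61 (edgeR unadjusted p = 0.033, adjusted p = 0.999), and without freeze-dried replicate 1 or 3 it was lower. That of let-7d-5p was 0.73 without freeze-dried replicate 2 (edgeR unadjusted p = 0.047, adjusted p = 0.999) and 0.31 without freeze-dried replicate 3.

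let-7i-5p and miR-98-5p were the guides without a higher mean in freeze-dried EVs. let-7i-5p, encoded alone on chromosome 10, had 15867, 10726 and 17036 CPM in freeze-dried libraries, against 12039 and 21096 CPM in not freeze-dried ones. The highest value is that of the shallow not freeze-dried replicate 2, and the groups overlap. The fitted log2 difference was -0.19 (interval -0.93 to 0.56, SE 0.33) and turned to 0.22 without that library. miR-98-5p, the rarest guide, had 2398, 1618 and 1947 CPM in freeze-dried libraries, against 1915 and 2215 CPM in not freeze-dried ones, a log2 difference of -0.05 (interval -0.85 to 0.74, SE 0.36). For these 2 guides the interval lies inside a 2-fold change in both directions, as it did for 8.56% of all tested miRNAs and 31.5% of the 89 abundant ones.

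**Figure D2:**
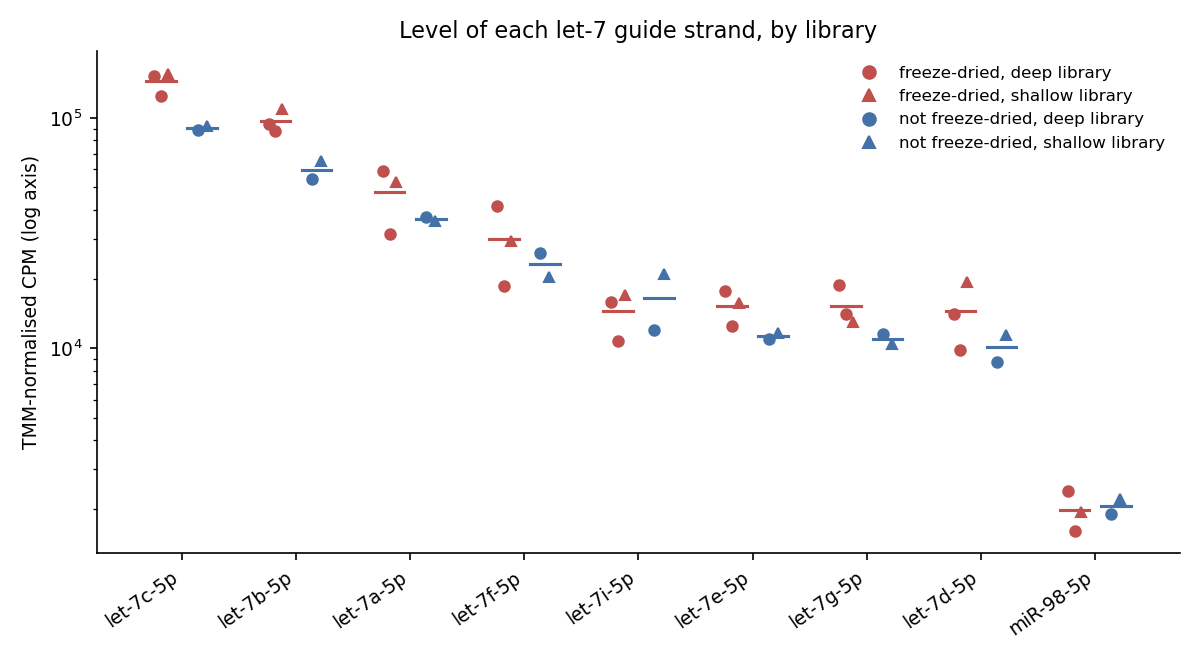
TMM-normalised CPM on a log axis for each of the 9 guides, with freeze-dried libraries left of not freeze-dried ones, 1 point per library (triangles for shallow libraries) and a line at each group mean. let-7c-5p and let-7b-5p stand apart between groups, at 124269 to 155940 against 89157 and 91918 CPM and at 88182 to 109722 against 54115 and 64935 CPM, while miR-98-5p overlaps near 2019 CPM.

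The order of the guides was stable at its top and bottom. By mean log2 CPM over the 5 libraries it ran let-7c-5p, let-7b-5p, let-7a-5p, let-7f-5p, let-7i-5p, let-7e-5p, let-7g-5p, let-7d-5p and miR-98-5p. let-7c-5p exceeded let-7b-5p in all 5 libraries, by 1.5-fold on the geometric mean. let-7b-5p exceeded let-7a-5p in all 5, by 1.90-fold, and let-7a-5p exceeded let-7f-5p in all 5, by 1.61-fold. let-7f-5p was above let-7i-5p in 4 libraries, the exception being not freeze-dried replicate 2. From let-7i-5p through let-7e-5p and let-7g-5p to let-7d-5p each neighbour led in only 2 or 3 libraries, so these 4 do not differ beyond their spread. The last of them was above miR-98-5p in all 5 libraries, by 6.10-fold. Of the 36 pairs of guides, 29 kept 1 order in every library, and in reads the most abundant guide exceeded the rarest by 59.7-fold.

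Within the family, the share of let-7c-5p in the 9 guides' counts was 38.1% ± 1.7 in freeze-dried EVs (SD, n = 3) and 34.7% ± 0.93 in not freeze-dried EVs (SD, n = 2), without overlap. let-7b-5p took 25.8% ± 2.9 (SD, n = 3) and 22.8% ± 1.8 (SD, n = 2) in freeze-dried and not freeze-dried EVs, with overlap. let-7i-5p took 3.81, 3.45 and 4.10% of the family in freeze-dried libraries, against 4.78 and 7.82% in not freeze-dried ones. miR-98-5p took 0.576, 0.520 and 0.469% in freeze-dried libraries, against 0.760 and 0.821% in not freeze-dried ones. These 2 guides and let-7e-5p, at 4.02% ± 0.24 (SD, n = 3) and 4.34% ± 0.033 (SD, n = 2), had a lower family share in every freeze-dried library. How many of all tested miRNAs would separate on this scale was not computed. The family shares add up to a fixed total, so they are not independent.

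An edgeR fit scaled to the sum of the 9 guides, over all tested miRNAs, asks whether a guide changed relative to its family. It called 0 of the 9. let-7i-5p had the smallest unadjusted p there, 0.043, at -0.73 on the log2 scale (interval -1.44 to -0.03, SE 0.32; adjusted p = 0.76). miR-98-5p had -0.60 (interval -1.52 to 0.32, SE 0.41). let-7b-5p at 0.18 (SE 0.24) and let-7c-5p at 0.13 (SE 0.22) were the only guides above 0 on this scale.

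The sequences shown above give a way to sort these shares, which was chosen after the values were seen and is given without a test. let-7b-5p and let-7c-5p, the guides with A19G, summed to 59.3, 68.3 and 64.0% of the family in freeze-dried libraries, against 56.9 and 58.2% in not freeze-dried ones. let-7i-5p and miR-98-5p, with A19U, summed to 4.38, 3.97 and 4.57% in freeze-dried libraries, against 5.54 and 8.64% in not freeze-dried ones. Neither sum overlaps between groups. For let-7i-5p and miR-98-5p this follows from their single shares, and in the other pair let-7c-5p was already apart while let-7b-5p overlapped. For the sum of let-7b-5p and let-7c-5p the nearest libraries are freeze-dried replicate 1 and not freeze-dried replicate 2. The 5 guides that keep the base of let-7a-5p there took 36.3, 27.7 and 31.4% in freeze-dried libraries, against 37.6 and 33.2% in not freeze-dried ones, with overlap. Over the 9 guides, which share libraries and differ by few bases, the number of G and C bases and the log2 fold change had a Pearson r of 0.43 and a Spearman rho of 0.61, given as a description. For mean log2 CPM and the log2 fold change they were 0.69 and 0.40, likewise given as a description.

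**Figure D3:**
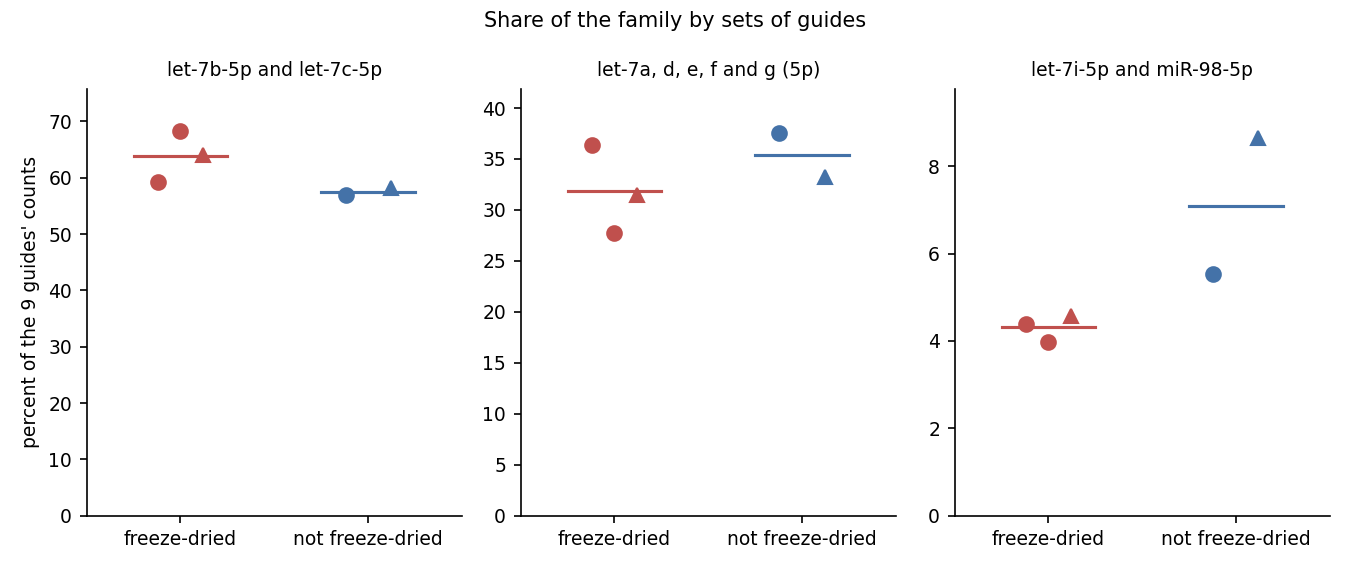
Percent of the 9 guides' counts taken by 3 sets of guides, with freeze-dried libraries left and not freeze-dried ones right, 1 point per library (triangles for shallow libraries) and a line at each mean, on axes from 0. The pair of let-7b-5p and let-7c-5p lies at 59.3 to 68.3% against 56.9 and 58.2%, and the pair of let-7i-5p and miR-98-5p at 3.97 to 4.57% against 5.54 and 8.64%.

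Libraries of different groups could be closer in family makeup than replicates. The root-mean-square difference of the centred log2 shares of the 9 guides was 0.15 between freeze-dried replicate 1 and not freeze-dried replicate 1, both deep. Between libraries of the same group it was 0.30 to 0.32, and between the other pairs across groups 0.36 to 0.45. In freeze-dried replicate 2 the ratio of let-7c-5p to let-7a-5p was 3.97, against 2.59 and 2.95 in the other freeze-dried libraries and 2.39 and 2.58 in not freeze-dried ones. The ratio of let-7f-5p to let-7a-5p moved less, from 0.557 to 0.707 over the 5 libraries. These 2 guides share a cluster on chromosome 13, but each also sums over a hairpin on another chromosome. For let-7d-5p of the same cluster the ratio to let-7a-5p ran from 0.234 to 0.369. For let-7e-5p, from chromosome 17, it ran from 0.295 to 0.399. The part of shared loci in these ratios was not tested.

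The opposite arms of the same hairpins, usually the discarded passenger strands, gave few reads except for let-7d-3p. Of 12 rows of 3p strands, 8 had a count, 5 were tested and 0 were called in either direction. All 5 tested strands had a fold change above 1, with a median log2 fold change of 0.68, beside 51.1% above 1 and a median of 0.02 over all tested miRNAs. That median is the value of let-7a-1-3p (SE 1.72), which shares its sequence with let-7c-2-3p (SE 1.31), so these rows are not separate strands. With let-7e-3p (SE 1.90) they had few counts in shallow libraries, and their directions are not resolved. let-7d-3p stood at 6081, 9488 and 11673 CPM in freeze-dried libraries, against 4804 and 5765 CPM in not freeze-dried ones, a log2 fold change of 0.78 (SE 0.34). Its ratio to let-7d-5p was 0.430, 0.964 and 0.599 in freeze-dried libraries, against 0.550 and 0.504 in not freeze-dried ones, so the arms did not keep 1 ratio. let-7b-3p had 511, 534 and 905 CPM in freeze-dried libraries, against 178 and 613 CPM in not freeze-dried ones (log2 fold change 0.72, SE 0.73).

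A pair of 3p rows shows how far counts of like sequences can be read. let-7a-1-3p and let-7c-2-3p have 1 mature sequence, shown here because both rows hold it.
let-7a-1-3p and let-7c-2-3p: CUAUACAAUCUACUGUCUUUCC
let-7c-2-3p had 923, 515 and 8 counts in freeze-dried libraries, against 80 and 23 in not freeze-dried ones. let-7a-1-3p had 556, 178 and 5 counts in freeze-dried libraries, against 36 and 12 in not freeze-dried ones. The counts of this 1 sequence were thus unequal between its rows, by 1.60- to 2.89-fold, in every library. What divided these reads was not tested.

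let-7 hairpins share transcripts with the miR-99/100 and miR-125 families, which have seeds of their own. The cluster partners lay on both sides. Of 11 rows, 9 were tested and 0 were called. The fitted level was higher in freeze-dried EVs for 2 and lower for 7, and the median log2 fold change was -0.42, beside 51.1% higher and a median of 0.02 over all tested miRNAs. The 2 on the higher side were the 2 most abundant. miR-125b-5p had 43014, 47063 and 32734 CPM in freeze-dried libraries, against 44815 and 31115 CPM in not freeze-dried ones (log2 fold change 0.11, SE 0.28). miR-125a-5p had 19592, 22331 and 20458 CPM in freeze-dried libraries, against 16877 and 11023 CPM in not freeze-dried ones (log2 fold change 0.58, SE 0.28).

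Ratios of a guide to its partner within a library were formed for 5 pairs, which leave out others such as let-7c-5p with miR-125b-5p. For let-7c-5p over miR-99a-5p, neighbours on chromosome 16, the ratio was 31.5, 31.3 and 38.6 in freeze-dried libraries, against 14.4 and 17.6 in not freeze-dried ones, a 2.12-fold difference. The count of let-7c-5p also holds reads of its chromosome 15 hairpin, which lacks that partner. For let-7e-5p over miR-99b-5p, which are processed from 1 cluster, the ratio was 1.18, 0.904 and 1.22 in freeze-dried libraries, against 0.627 and 0.595 in not freeze-dried ones, a 1.79-fold difference. In both pairs the groups do not overlap, and the exact two-sided permutation p was 0.20, the smallest that 3 libraries against 2 can give (0.50 after Benjamini-Hochberg adjustment over the 5 pairs). The ratios of let-7e-5p to miR-125a-5p, let-7a-5p to miR-100-5p and let-7a-5p to miR-125b-5p overlapped between groups, with exact permutation p-values of 0.80, 0.60 and 0.80.

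**Figure D4:**
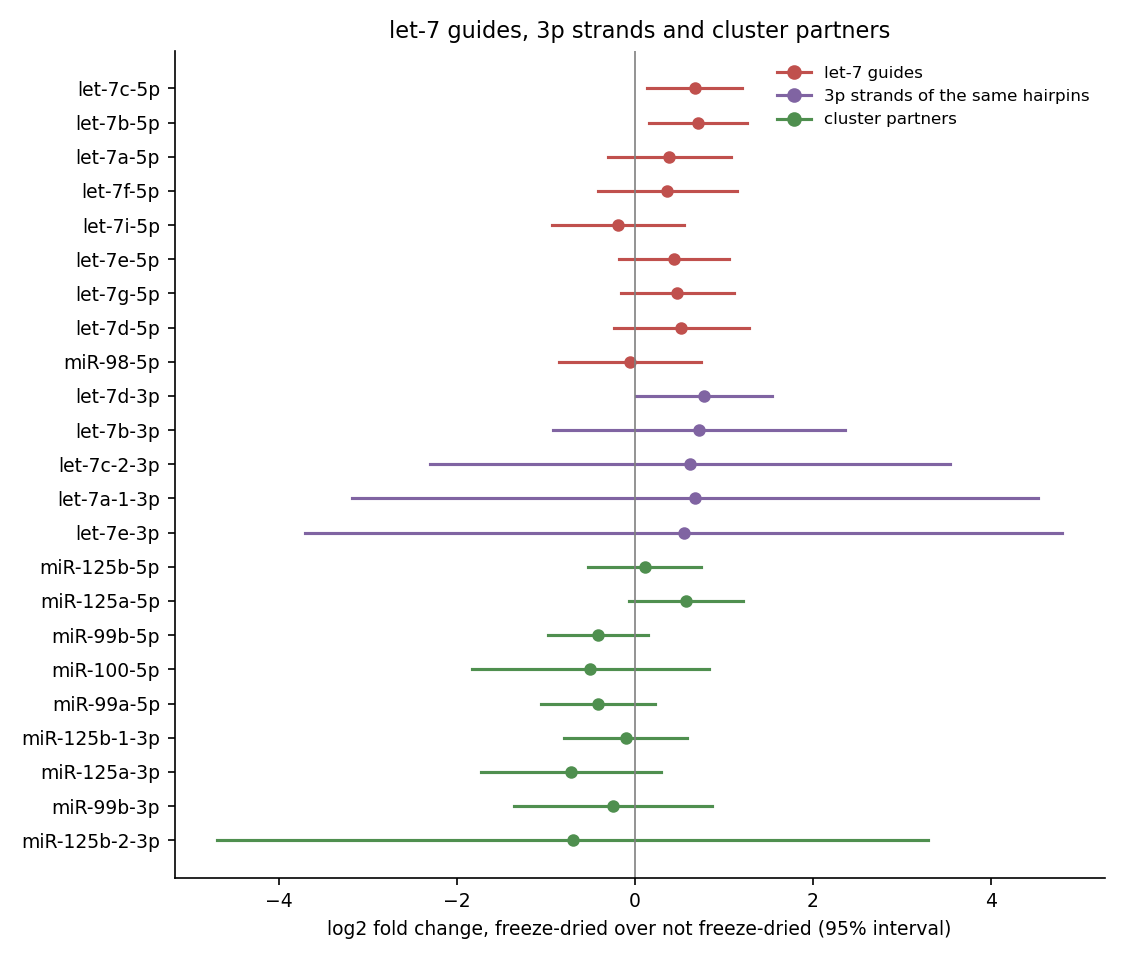
log2 fold changes of freeze-dried over not freeze-dried EVs from edgeR, with 95% intervals, for the 9 guides, the 5 tested 3p strands and the 9 tested cluster partners, from the top. The intervals of let-7c-5p, let-7b-5p and let-7d-3p lie above 0, none of them called after adjustment, and 7 of the 9 partners have a point below 0.

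Other rows carry the let-7 name or seed. They are shown because each stands 1 base from a guide over its shared length.
let-7j: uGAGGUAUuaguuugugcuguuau
let-7k: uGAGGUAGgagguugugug
let-7j is let-7i-5p with G8U and a longer 3′ end, so its seed is not that of the family. It had 485, 624 and 643 CPM in freeze-dried libraries, against 840 and 1142 CPM in not freeze-dried ones (log2 fold change -0.76, SE 0.50, edgeR adjusted p = 0.98). All its freeze-dried libraries were lower, as for 8.56% of all tested miRNAs. let-7i-5p was also fitted lower, but with overlap and with a sign that turned without not freeze-dried replicate 2. The counts of let-7j over those of let-7i-5p were 0.0306, 0.0582 and 0.0378 in freeze-dried libraries, against 0.0698 and 0.0541 in not freeze-dried ones, with overlap. let-7k, which is let-7b-5p with U9G over its 19 bases, had 113, 126 and 0 counts in freeze-dried libraries, against 4 and 0 in not freeze-dried ones. The third such row, miR-1961, was at 0 in all 5 libraries.

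The miRNAs whose levels across the 5 libraries were most like the summed guides were sought among 78 others that averaged 1000 CPM or more and had a count in every library. The measure was the root-mean-square difference of centred log2 CPM without TMM factors, whose median over the 78 was 0.47. The nearest were miR-103-3p at 0.21, miR-196a-5p at 0.22, miR-26b-5p at 0.25, miR-199b-3p at 0.26 and miR-206-3p at 0.27. Without TMM factors, miR-103-3p had 1426, 1589 and 1330 CPM in freeze-dried libraries, against 1345 and 1278 CPM in not freeze-dried ones. Its groups overlap, through freeze-dried replicate 3. The 5 had log2 fold changes of 0.05 to 0.66 in the whole-table fit, and 0 of them were called.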

How the data were processed

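The authors' deposited values are raw read counts, 1 row for each of 1966 mature miRNAs and 1 column for each of 5 libraries. Per the submitters' processing notes, which assign no steps, the tools were bcl2fastq 2.20, FastQC, cutadapt 2.3, featureCounts 1.5.0-p1 and Bowtie 1.1.2, and GRCm38 was the build. For multi-match handling, mismatch limits, strand use and the miRNA annotation, the sources used here give nothing.

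Libraries were grouped by their titles. Differences were fitted on the deposited counts over the whole table with edgeR 4.0.16 in R 4.3.3 (TMM normalization, filterByExpr by group, robust quasi-likelihood F test). The 327 miRNAs that passed the filter share 1 Benjamini-Hochberg adjustment, with a threshold of 0.05. Each standard error (SE) is the absolute log2 fold change over the root of F, and each 95% interval takes its t quantile from the total degrees of freedom. CPM values are TMM-normalised unless said otherwise, and TMM factors ran between 0.913 and 1.12. Share intervals are exact Clopper-Pearson ones. They cover counting error only, as reads are not independent molecules. Ratios within libraries were compared with exact permutation tests in scipy 1.17.1.

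Separate cultures are not stated in the labels for the replicates. The p-values thus reflect spread among these 5 samples alone, possibly technical spread. The alternatives were other normalizations, no low-count filter, DESeq2 1.42.0, limma-voom (limma 3.58.1), depth class, the replicate block and leaving out each library. The fitting functions were tested on simulated counts. Sequences are from RefSeq (GRCm38.p6), where all 9 guides matched. Hosts of hairpins are from GENCODE M21, on GRCm38.

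The members, lists and alternatives were chosen with earlier results of these data known. The miRNAs named are the 9 guides and, in each list, the called ones or else the 2 of highest mean CPM. For likeness to the family the 5 nearest are named. Further rows named with their partners or sequences were chosen after their values were seen.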

Additional observations from a re-analysis of the deposited data

How the results depend on the processing

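No guide was called, higher or lower, under any of the alternatives run. The next ranges are over 15 alternatives, which leave out the scale set by the sum of the 9 guides. let-7b-5p kept a log2 fold change of 0.58 to 0.80 (adjusted p 0.62 with DESeq2 to 0.999 with edgeR). That of let-7c-5p was 0.54 to 0.76 (adjusted p 0.62 with DESeq2 to 0.999 with edgeR). let-7a, d, e, f and g stayed above 0. Leaving out 1 library gave let-7f-5p a range of 0.061 to 0.61, the lowest without freeze-dried replicate 1, and let-7d-5p one of 0.31 to 0.73. let-7i-5p, which ran from -0.47 to 0.22 on leaving out 1 library, turned to 0.22 without not freeze-dried replicate 2 and to 0.12 in the 3 deep libraries, a choice added later. For miR-98-5p that range was -0.20 to 0.0729. It turned to 0.0729 when freeze-dried replicate 2 was left out, to 0.0182 for freeze-dried replicate 3, to 0.0079 for not freeze-dried replicate 2 and to 0.0459 in the 3 deep libraries. Scaled to the sum of the 9 guides, which centres them by construction, let-7a-5p was at -0.19, let-7d-5p at -0.0405, let-7e-5p at -0.11, let-7f-5p at -0.22 and let-7g-5p at -0.0576. The share difference of 9.07 points was 7.69 to 11.1 without 1 library, 9.0 without miRNAs numbered 1000 or above in the total and 9.08 with every row of the seed. With the replicate block let-7b-5p had 0.62 (unadjusted p = 0.16) and let-7c-5p 0.61 (unadjusted p = 0.17), with 0 guides called. Only 2 pairs share a number, with deviations correlated at 0.15 and -0.11, which does not show that the numbers pair the samples, and a shared batch was not tested. Likeness was the same 5 miRNAs without the guides in the total, since the scale cancels. The 2 shallow libraries and a group of 2 limit precision.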
